A study of Mus musculus with 8 samples.

Results

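The nuclear receptor genes other than those of RXR and RAR, 39 of the 22367 protein-coding genes in the mouse annotation, were examined for myogenin and p300 ChIP-seq peaks. A peak was assigned to a gene when it lay within 50 kb of the gene body, so that each gene had a window of 103 to 834 kb with a median of 156 kb, against a median of 115 kb for all protein-coding genes. At least 1 peak lay in the windows of 29 of the 39 genes (74.4%, 95% Wilson interval 58.9 to 85.4%, against 63.9% of all protein-coding genes), and the windows held 27 of the 5912 myogenin peaks of control cells, 26 of the 6642 myogenin peaks of bexarotene-treated cells, 80 of the 22051 p300 peaks of control cells and 36 of the 9154 p300 peaks of bexarotene-treated cells. No peak was called near the other 10 genes, which were Thrb, Nr1i2, Hnf4g, Nr2e1, Nr2e3, Esr2, Esrrb, Esrrg, Pgr and Nr0b2.

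The peaks came from C2C12 cells, a mouse myoblast line whose strain is given as C3H and which forms multinucleated myotubes in low serum. All cells were kept for 24 h in differentiation medium with horse serum, and the treated cells received 50 nM bexarotene, a ligand selective for RXR, when differentiation was induced, while the control cells were untreated. Myogenin, a transcription factor of muscle differentiation that binds E-box sequences, and p300, an acetyltransferase that acts as a transcriptional co-activator at enhancers and promoters, were each precipitated from 1 library per condition. The antibodies were from Santa Cruz, and the input and H3K27me3 libraries among the 8 samples were not analysed here.

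Nuclear receptors are transcription factors, many of which are switched by a small lipophilic ligand such as a steroid, a thyroid hormone, vitamin D or a fatty acid. A large group of them, including the thyroid hormone receptors, the PPARs, the liver X receptors, FXR and the vitamin D receptor, bind DNA as a heterodimer with RXR, often at repeats of the hexamer AGGTCA, while the steroid receptors bind as homodimers and others such as the Rev-erb proteins can bind as monomers. In skeletal muscle, members of the family are known for their parts in fiber type, fuel use and the circadian clock. The data here concern binding of myogenin and p300 around the receptor genes, not binding by the receptors or expression of the genes.

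The sequences of 8 myogenin peaks around 7 of the receptor genes are shown because the positions of these peaks carry most of what follows. The first 4 are from peaks with an E-box near their center that overlapped a p300 peak of either condition, taken 1 per gene with regions unique to bexarotene before shared ones and these before regions unique to control. The other 4 were picked after their positions had been seen. The Nr6a1 peak overlapped p300 of control cells only, which is not its own condition. All are from the mm9 genome, plus strand, 5′ to 3′. Capitals mark an E-box, either CAGCTG or the form CACCTG, which reads as CAGGTG on the opposite strand, except in the Nr1d1 peak, where they mark AGGTCA on the minus strand (TGACCT as printed). The Nr6a1 peak was unique to bexarotene and lay inside Olfml2a at chr2:38811794-38811961. The first Hnf4a peak was unique to bexarotene (chr2:163421850-163422017) and the second to control (chr2:163421580-163421805), both downstream of the gene. The Esr1 peak was shared and lay in intron 4, where it reached into an annotated snoRNA (bexarotene interval at chr10:5570696-5570992). The Nr1h4 peak was unique to control, in intron 1 (chr10:88994172-88994445). The Ppara peak was unique to bexarotene (chr15:85533376-85533543), the Nr4a1 peak was unique to control (chr15:101084225-101084458) and the Nr1d1 peak was shared (bexarotene interval at chr11:98636998-98637244), all upstream of their genes.
Nr6a1: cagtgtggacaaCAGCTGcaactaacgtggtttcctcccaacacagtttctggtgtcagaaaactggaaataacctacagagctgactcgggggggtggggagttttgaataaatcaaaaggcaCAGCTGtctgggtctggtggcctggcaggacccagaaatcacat
Hnf4a, bexarotene: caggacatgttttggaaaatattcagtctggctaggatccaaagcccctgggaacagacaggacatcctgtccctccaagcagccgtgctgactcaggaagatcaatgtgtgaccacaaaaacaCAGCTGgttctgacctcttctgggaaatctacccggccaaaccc
Esr1: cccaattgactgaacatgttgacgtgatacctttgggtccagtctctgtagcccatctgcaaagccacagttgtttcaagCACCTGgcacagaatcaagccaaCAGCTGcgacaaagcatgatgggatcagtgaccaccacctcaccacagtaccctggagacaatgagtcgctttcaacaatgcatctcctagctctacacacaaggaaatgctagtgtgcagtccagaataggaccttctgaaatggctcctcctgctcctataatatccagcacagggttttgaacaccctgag
Nr1h4: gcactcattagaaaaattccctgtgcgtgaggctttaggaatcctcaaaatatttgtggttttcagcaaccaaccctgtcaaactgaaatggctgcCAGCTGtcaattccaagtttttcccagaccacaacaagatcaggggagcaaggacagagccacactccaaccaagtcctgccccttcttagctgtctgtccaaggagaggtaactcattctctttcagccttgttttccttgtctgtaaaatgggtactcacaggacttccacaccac
Hnf4a, control: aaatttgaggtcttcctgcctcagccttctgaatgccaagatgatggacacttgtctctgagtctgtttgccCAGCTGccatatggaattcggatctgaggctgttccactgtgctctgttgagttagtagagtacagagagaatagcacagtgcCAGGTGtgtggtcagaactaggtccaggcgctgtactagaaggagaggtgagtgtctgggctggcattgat
Ppara: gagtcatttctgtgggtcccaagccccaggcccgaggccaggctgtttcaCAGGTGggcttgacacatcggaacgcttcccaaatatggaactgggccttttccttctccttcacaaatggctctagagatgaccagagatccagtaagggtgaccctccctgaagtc
Nr4a1: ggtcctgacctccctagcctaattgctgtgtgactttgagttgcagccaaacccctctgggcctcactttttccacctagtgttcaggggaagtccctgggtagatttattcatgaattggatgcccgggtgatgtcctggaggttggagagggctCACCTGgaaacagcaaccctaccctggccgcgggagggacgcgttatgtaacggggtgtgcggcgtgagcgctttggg
Nr1d1: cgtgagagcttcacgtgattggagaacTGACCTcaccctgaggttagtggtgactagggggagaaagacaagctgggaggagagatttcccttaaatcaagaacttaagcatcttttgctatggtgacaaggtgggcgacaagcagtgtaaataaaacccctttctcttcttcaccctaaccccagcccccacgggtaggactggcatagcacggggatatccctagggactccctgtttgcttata

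The deposited lists hold positions only, with no score or tag count, and 1 library stood for each condition. No test between conditions was therefore possible, and a locus called in 1 condition may lie just below the calling threshold in the other. The libraries' read totals were not given with the lists, and the lists themselves differed in size, the p300 list being the shorter after bexarotene. Intervals given with shares are 95% Wilson intervals, which cover counting error only.

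Myogenin was found near 16 of the 39 genes in either condition (41%, interval 27.1 to 56.6%, against 41.4% of all protein-coding genes) and p300 near 28 (71.8%, interval 56.2 to 83.5%, against 56.8% of all genes). Both factors had a peak near 15 genes (38.5%, interval 24.9 to 54.1%, against 34.2% of all genes), p300 alone near 13 (33.3%, interval 20.6 to 49%, against 22.6%) and myogenin alone near 1, Nr1h2 (2.56%, interval 0.454 to 13.2%, against 7.18%). By list, 13 genes had a myogenin peak in control (33.3%, 95% interval 20.6 to 49%, against 32.3% of all protein-coding genes) and 14 after bexarotene (35.9%, interval 22.7 to 51.6%, against 32.9% of all genes). For p300, 27 genes had a peak in control (69.2%, interval 53.6 to 81.4%, against 53.8% of all genes) and 18 after bexarotene (46.2%, interval 31.6 to 61.4%, against 35.2% of all genes). The members' windows were longer than those of the average gene, and per length their peak density was close to that of all genes. It was 3.33 peaks per Mb for myogenin in control (all genes 3.13), 3.21 after bexarotene (3.45), 9.87 for p300 in control (10.5) and 4.44 after bexarotene (4.32), and each value for all genes lay within the members' exact 95% Poisson interval.

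**Figure D1:**
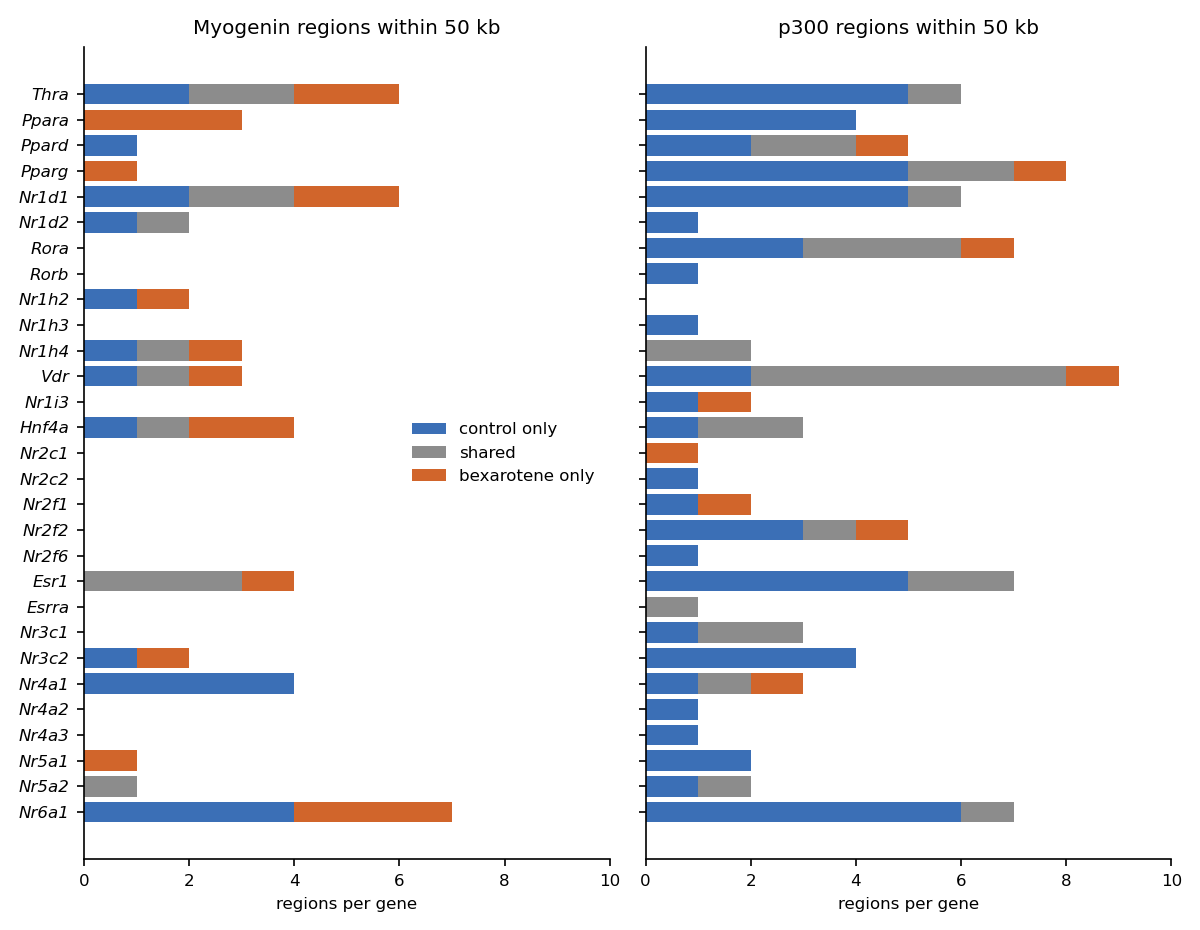
Number of myogenin (left) and p300 (right) regions within 50 kb of each of the 29 receptor genes with any peak, split into regions unique to control, shared and unique to bexarotene. Ppara had myogenin regions unique to bexarotene and p300 regions unique to control, Nr4a1 had 4 myogenin regions, all unique to control, and 6 of the 9 p300 regions at Vdr were shared. All myogenin peaks at Ppara and most at Nr4a1 had the smallest length of their list.

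To compare the conditions, peaks of the same factor sharing 1 bp or more were joined into a region. Around the receptor genes, myogenin formed 43 regions, of which 17 were unique to control, 10 shared and 16 unique to bexarotene. Regions unique to control thus made up 63% of the control regions (interval 44.2 to 78.5%, against 49.4% in the whole lists), and regions unique to bexarotene made up 61.5% of the bexarotene regions (interval 42.5 to 77.6%, against 55.0% in the whole lists). For p300, 53 regions were unique to control, 27 shared and 9 unique to bexarotene. Those unique to control were 66.2% of the control regions against 67.4% in the whole lists, and those unique to bexarotene were 25% of the bexarotene regions (interval 13.8 to 41.1%) against 20.5%. The whole-list shares lay within the members' intervals at this number of regions. The last share moved to 47.2% when 50% reciprocal overlap was required and to 7.14% (1 of 14) when only peaks longer than the smallest were kept.

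Gene by gene, 11 members had a myogenin region unique to control (23.0% of all genes had one), 12 had one unique to bexarotene (25.1% of all genes), 25 had a p300 region unique to control (47.5% of all genes) and 9 had one unique to bexarotene (14.4% of all genes). Myogenin peaks were more numerous after bexarotene at 5 members, Ppara, Pparg, Hnf4a, Esr1 and Nr5a1 (16.2% of all genes), and fewer at 4, Ppard, Nr1d2, Nr4a1 and Nr6a1 (15.0% of all genes). p300 peaks were fewer after bexarotene at 22 members (43.8% of all genes) and more numerous at 1, Nr2c1 (4.59% of all genes). The bexarotene p300 list was shorter as a whole, and its part in these counts was not tested.

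**Figure D2:**
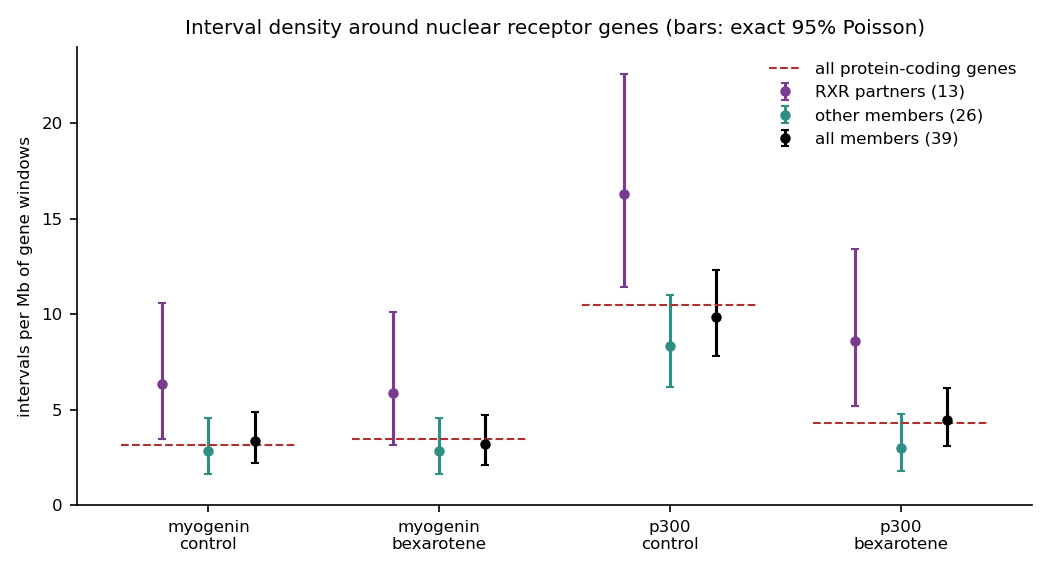
Peaks per Mb of gene windows in the 4 lists for the set of 13 RXR partners, the other 26 receptor genes and all 39. Bars are exact 95% Poisson intervals, and the dashed lines give all protein-coding genes. In all 4 lists the point of the RXR partners lies above that of the other members; the p300 intervals of the 2 groups are apart here and overlap once Vdr is left out (13.6 and 5.85 peaks per Mb).

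A set of 13 receptors known to bind DNA with RXR was separated from the other 26. The 13 were Thra, Thrb, Ppara, Ppard, Pparg, Nr1h2, Nr1h3, Nr1h4, Vdr, Nr1i2, Nr1i3, Nr4a1 and Nr4a2. The partners' windows held 6.34 myogenin peaks per Mb in control (exact Poisson interval 3.47 to 10.6), 5.89 after bexarotene (3.13 to 10.1), 16.3 p300 peaks per Mb in control (11.4 to 22.6) and 8.6 after bexarotene (5.18 to 13.4). The other members' windows held 2.84 in both myogenin lists (interval 1.65 to 4.54), 8.34 (6.19 to 11) and 3 (1.78 to 4.75) p300 peaks per Mb. The intervals of the partners and of the other members overlapped for myogenin in both conditions and were apart for p300. The groups were not disjoint. Thra, a partner, and its neighbor Nr1d1, not a partner, held the same peaks, which were counted in both groups. All genes had 3.13, 3.45, 10.5 and 4.32 peaks per Mb, and the partners' interval lay above this value for myogenin in control and for p300 in both conditions and held it for myogenin after bexarotene. Without Vdr, which held 8 of the partners' 36 control and 7 of their 19 bexarotene p300 peaks, the partners had 13.6 p300 peaks per Mb in control (interval 9.07 to 19.7) and 5.85 after bexarotene (3.02 to 10.2), and both intervals overlapped those of the other members and held the value of all genes. For control p300 the intervals also overlapped without Thra (14.4 peaks per Mb), Pparg (14.7), Ppara or Ppard (15.7 each), and the partners' interval then held the value of all genes without Thra or Pparg. After bexarotene they overlapped without Ppard (7.84), Pparg (8.08) or Nr4a1 (8.09), each time with the partners' interval above the value of all genes. Of the other members, leaving out Rora (8.53), Hnf4g (8.71), Esrrb (8.72) or Esrrg (9.45) brought the control intervals into overlap, and leaving out Esrrg (3.4) those after bexarotene, where the last 3 genes held no peak and only shortened the window. The p300 density of the partners stayed above that of the other members in each of these omissions. For control myogenin, the partners' interval held the value of all genes without Thra (4.81), Nr1h4 (5.91), Vdr (5.85) or Nr4a1 (4.76), and after bexarotene it lay above that value without Thrb (7.51). These omissions were chosen after seeing the data. The difference was not tested, since windows of neighboring genes and peaks within 1 window are not independent. By class, the partners had 10 myogenin regions unique to control, 4 shared and 9 unique to bexarotene, and 22, 14 and 5 p300 regions. For myogenin, 71.4% of their control regions were unique to control (interval 45.4 to 88.3%, against 49.4% of the whole list) and 69.2% of their bexarotene regions were unique to bexarotene (interval 42.4 to 87.3%, against 55% of the whole list). For p300 these shares were 61.1% (interval 44.9 to 75.2%, against 67.4% of the whole list) and 26.3% (interval 11.8 to 48.8%, against 20.5%), so that each whole-list value lay inside the partners' interval.

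Among the RXR partners, the thyroid hormone receptor gene Thra lies beside Nr1d1, the gene of the clock repressor Rev-erb alpha, and both windows held the same regions. Each had 4 myogenin peaks in control, 4 after bexarotene, 6 p300 peaks in control and 1 after bexarotene. Thra was the gene with the nearest TSS for none of these regions. A shared myogenin region at chr11:98636982-98637247, centered 474 bp upstream of the Nr1d1 TSS, overlapped a shared p300 region at chr11:98637166-98637381, so that both factors were called there in both conditions. The myogenin peak held no E-box near its center and held 1 AGGTCA. A second shared myogenin region stood 1564 bp upstream of the same TSS, and a myogenin region unique to control stood 839 bp downstream of it in intron 1 (chr11:98635628-98635799). Of the 6 p300 regions at this locus, 5 were unique to control. No peak was called near Thrb, the gene of the other thyroid hormone receptor, in a window of 477 kb.

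The 3 PPAR genes, whose products sense fatty acids and control their oxidation and storage, differed in their pattern. Ppara had no myogenin peak in control and 3 after bexarotene, with 4 p300 peaks in control and 0 after bexarotene. The 3 myogenin regions lay 36.8, 32.5 and 26.2 kb upstream of the TSS. The p300 regions lay 50.5, 48.5, 26.6 and 25.5 kb upstream. Every one of these myogenin peaks was 168 bp long, the smallest length in the bexarotene myogenin list. Every one of the p300 peaks but 1 (444 bp) was 159 bp long, the smallest length in the control p300 list. None of the myogenin regions overlapped p300, the closest being 319 bp from a p300 peak of control cells, and the TSS of Ppara was the nearest to all 7. An E-box near the center was present in 1 of the 3 myogenin regions, the one printed above.

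Pparg, the regulator of fat cell differentiation, had 1 myogenin peak, unique to bexarotene, at chr6:115267009-115267176. It lay 44.1 kb upstream of the TSS and inside a p300 region unique to control at chr6:115266637-115267188. Of its 8 p300 regions, 5 were unique to control, 2 shared and 1 unique to bexarotene, and 2 of those unique to control were at annotated starts of the gene, at chr6:115311095-115311253 (65 bp upstream) and chr6:115371041-115371263 (932 bp upstream of an internal start). Ppard, expressed widely and in muscle linked to oxidative metabolism, had 4 p300 peaks in control and 3 after bexarotene, with a shared p300 region 228 bp upstream of its TSS (chr17:28369342-28369813). Its only myogenin region was unique to control (chr17:28465623-28465839), 315 bp from the TSS of the neighboring ribosomal protein gene Rpl10a, and shared 25 of its 217 bp with a control p300 peak.

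Vdr, the receptor for active vitamin D, had the most peaks of the members, with 2 myogenin peaks in each condition, 8 p300 peaks in control and 7 after bexarotene. Unlike most members, its p300 regions were mainly shared, 6 of 9, with 2 unique to control and 1 unique to bexarotene. A shared p300 region stood in intron 1, 980 bp downstream of the TSS (chr15:97737655-97737984), and another 3.86 kb upstream. Of the p300 regions, 5 fell within the body of Hdac7, a neighbor that encodes a histone deacetylase. Myogenin and p300 coincided once, in both conditions, in Hdac7 at chr15:97650446-97650744. A myogenin region unique to bexarotene lay in intron 3 of Vdr, 19 kb downstream of the TSS, with 1 E-box near its center and no p300 peak within 29308 bp. The xenobiotic receptor gene Nr1i3 had 1 p300 region unique to each condition, each nearest to B4galt3, and Nr1i2 had none.

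The liver X receptor genes, whose products sense oxysterols, had few peaks. Nr1h2 had 1 myogenin region unique to control, 116 bp upstream of an annotated TSS (chr7:51809086-51809257) with an E-box near the center, and 1 unique to bexarotene. It was the only member with myogenin and no p300 peak. Nr1h3 had 1 p300 region unique to control. Nr1h4, the bile acid receptor gene, had 2 peaks in each of the 4 lists. In its intron 1, 2.02 kb from the TSS, a myogenin peak unique to control (chr10:88994172-88994445) overlapped a shared p300 region (chr10:88994145-88994519), while the myogenin region shared by the conditions lay in the neighboring Slc17a8.

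The NR4A genes encode receptors that are induced rapidly by many signals and act without a known ligand. Nr4a1, also known as Nur77, had 4 myogenin peaks in control and 0 after bexarotene. They lay 20, 18.6, 12.9 and 12.3 kb upstream of the TSS, and 2 of the 4 held an E-box near the center. The last 2 stood on either side of a shared p300 region at chr15:101084482-101084808, at 23 and 228 bp from its control peak and 143 and 60 bp from its bexarotene peak, without touching either. At no other member were 4 or more myogenin regions all of 1 class. Of the 4 Nr4a1 peaks, 1 was 234 bp long and the others were 172 bp, the smallest length in the control myogenin list. Nr4a2 and Nr4a3 had no myogenin peak and 1 p300 region each, unique to control. That of Nr4a3 was 95 bp upstream of the TSS (chr4:48057851-48058009).

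**Figure D3:**
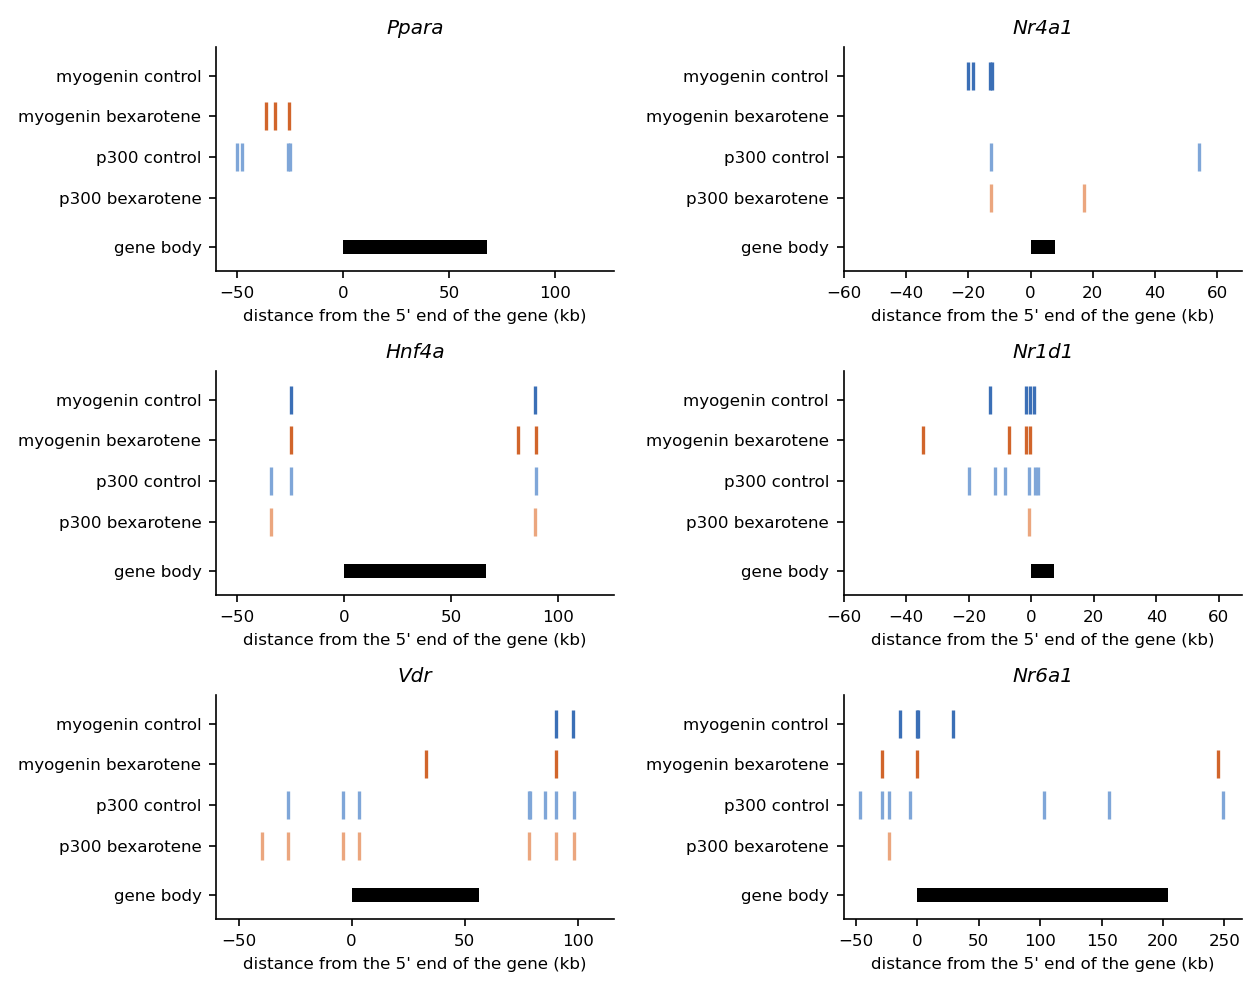
Positions of peaks around 6 receptor genes by distance from the 5′ end of the gene in kb, with 1 row for each list; ticks mark peak centers and black bars the gene body. Myogenin ticks appear upstream of Ppara after bexarotene and upstream of Nr4a1 in control, and the tick pairs downstream of Hnf4a and at the start of Nr6a1 are neighboring peaks of different conditions.

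Outside the RXR partners, the second Rev-erb gene, Nr1d2, had 2 myogenin peaks in control and 1 after bexarotene. The region unique to control was in exon 1, 276 bp from the TSS (chr14:19071279-19071450), and a p300 region unique to control stood 667 bp from it in intron 1 (chr14:19070895-19071053). The 2 were separated by 225 bp. Rora, the gene of the clock activator that competes with the Rev-erb proteins for the same sites, had no myogenin peak. It had 6 p300 peaks in control and 4 after bexarotene, all in introns 1 and 2, of which 3 regions were shared. Rorb had 1 p300 region, unique to control.

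Hnf4a, best known as a regulator of liver genes, had 2 myogenin peaks in control, 3 after bexarotene, 3 p300 peaks in control and 2 after bexarotene. A shared myogenin region 25.1 kb upstream of the TSS (chr2:163307183-163307629) held the longest myogenin peaks of the windows in both lists, 446 bp in control and 438 bp after bexarotene. A p300 region unique to control overlapped it. Downstream of the gene, a myogenin peak unique to control and one unique to bexarotene lay 44 bp apart, and both were covered by 1 shared p300 region at chr2:163421517-163422320. They were counted in different classes because they did not overlap. The control peak held 2 E-boxes near its center and the bexarotene peak 1, which stands in the sequence printed above.

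Nr6a1, the germ cell nuclear factor gene, had 4 myogenin peaks in control and 3 after bexarotene, none shared. Around its TSS, regions unique to control lay 550 bp downstream in intron 1 (chr2:38782529-38782787) and 23 bp upstream (chr2:38783145-38783316), and a region unique to bexarotene lay 321 bp upstream (chr2:38783445-38783612), 128 bp from its control neighbor. None of the 3 held an E-box near its center. Another region unique to bexarotene, in Olfml2a, overlapped a p300 region unique to control (chr2:38811786-38812030). Of its 7 p300 regions, 6 were unique to control and 1 was shared. These counts include 1 myogenin and 1 p300 region that also lay in the window of its neighbor Nr5a1, the steroidogenic factor gene. Nr5a1 had 1 myogenin peak after bexarotene, none in control, and 2 p300 regions unique to control. Nr5a2 had 1 shared myogenin region 140 kb from its TSS, and 1 shared p300 region and 1 unique to control in its introns.

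Among the steroid receptors, Esr1, the estrogen receptor alpha gene, had 3 myogenin peaks in control and 4 after bexarotene, with 7 and 2 p300 peaks. Its 3 control peaks were all shared. In intron 4, the shared myogenin region at chr10:5570657-5570992 lay within a shared p300 region at chr10:5569901-5571338, whose peaks of 1438 bp in control and 905 bp after bexarotene were the longest p300 peaks of the windows. The other 2 shared regions were in the neighboring Syne1, and the region unique to bexarotene was in intron 2, with 2 E-boxes near its center and the nearest p300 peak, of control cells, at 752 bp. Nr3c2, the mineralocorticoid receptor gene, had 1 myogenin peak in each condition, 4 p300 peaks in control and 0 after bexarotene. In intron 2, the control peak at chr8:79555235-79555406 overlapped p300 by 16 bp. In intron 6, the bexarotene peak at chr8:79712328-79712495 coincided with a p300 region unique to control at chr8:79712330-79712488. No peak was called near Esr2, Pgr, Esrrb or Esrrg, and Esrra, the gene of a receptor known for its part in mitochondrial metabolism, had 1 shared p300 region 43.9 kb downstream.

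Nr3c1, the glucocorticoid receptor gene, had no myogenin peak and 3 p300 peaks in control and 2 after bexarotene. The p300 region unique to control was 51 bp upstream of an annotated start (chr18:39649416-39649770), and the 2 shared regions lay downstream of the gene. Of the orphan receptors known mainly as repressors, Nr2f2, the COUP-TFII gene, had 4 p300 peaks in control and 2 after bexarotene, all outside the gene, with a region unique to bexarotene 24 bp from a region unique to control. Nr2f1 had a p300 region unique to control in exon 1, 686 bp from the TSS (chr13:78338253-78338411), and one unique to bexarotene 1.99 kb upstream. Nr2c2 had 1 p300 region, unique to control, 430 bp upstream of an annotated start (chr6:92041870-92042123), Nr2f6 had 1 unique to control at the neighboring Ocel1 promoter, and Nr2c1 had 1 unique to bexarotene at the promoter of Ndufa12. None of these 6 genes had a myogenin peak.

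Peaks at the members' own promoters, with the center within 1 kb of a TSS of the gene, were found for 4 members in the control myogenin list (10.3%, interval 4.06 to 23.6%, against 6.05% of all genes) and for 2 after bexarotene (5.13%, interval 1.42 to 16.9%, against 3.72% of all genes). They were Nr1d1, Nr1d2, Nr1h2 and Nr6a1 in control, and Nr1d1 and Nr6a1 after bexarotene. For p300 there were 9 in control (23.1%, interval 12.6 to 38.3%, which lies above the 10.6% of all genes) and 3 after bexarotene (7.69%, interval 2.65 to 20.3%, against 5.23% of all genes). The 3 were Ppard, Nr1d1 and Vdr, and the p300 promoter peaks of Pparg, Nr1d2, Nr2c2, Nr2f1, Nr3c1 and Nr4a3 were called in control only. Counting promoters of any gene, 21.2% of the 80 p300 control peaks in the windows were within 1 kb of a TSS (interval 13.7 to 31.4%), against 11% of the whole list, which also holds peaks far from genes, and 14.1% of the control p300 peaks within 50 kb of any protein-coding gene, a value inside the interval. After bexarotene the share was 22.2% of 36 peaks (interval 11.7 to 38.1%) against 15.9% of the peaks within 50 kb of any gene. For myogenin the shares were 29.6% in control (interval 15.9 to 48.5%) against 27.7% of such peaks and 15.4% after bexarotene (interval 6.15 to 33.5%) against 14.6%.

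Many windows held peaks that were closer to another gene. Of the 43 myogenin regions, 26 had a member as the gene with the nearest TSS, 11 were centered in the body of a member and 7 lay in the windows of 2 members. Of the 89 p300 regions the counts were 53, 36 and 7.

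Overlap of the factors was read in matching conditions. In control, 8 of the 27 myogenin peaks overlapped p300 (29.6%, interval 15.9 to 48.5%, against 33% of the whole list), and after bexarotene 4 of 26 did (15.4%, interval 6.15 to 33.5%, against 25.6% of the whole list). The shared stretch was shortest at Nr3c2, with 16 bp, and Ppard, with 25 bp, and longest at Hnf4a in control, with 339 of 446 bp. The whole myogenin peak lay within p300 at Esr1 in both conditions and at a second control peak of Hnf4a. With centers required within 100 bp the shares were 11.1% and 3.85%, and with only peaks longer than the smallest the control share was 50%. They lay in the windows of 8 members (20.5%, interval 10.8 to 35.5%, against 15.4% of all protein-coding genes), namely Thra and Nr1d1 together, Ppard, Nr1h4, Vdr, Hnf4a, Esr1 and Nr3c2. When p300 of either condition was counted, 12 of the 43 myogenin regions overlapped it (27.9%, interval 16.7 to 42.7%, against 34.7% of the whole list). Of the 16 myogenin regions unique to bexarotene, 4 overlapped p300 (25%, interval 10.2 to 49.5%, against 30.9% of the whole list). In 3 of these, at Pparg, Nr3c2 and Nr6a1, the p300 region was unique to control, and in the other, at Hnf4a, it was shared. The 3 regions were 18.8% of the 16, and 12.9% of the 3645 regions unique to bexarotene in the whole list overlapped p300 unique to control in the same way.

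**Figure D4:**
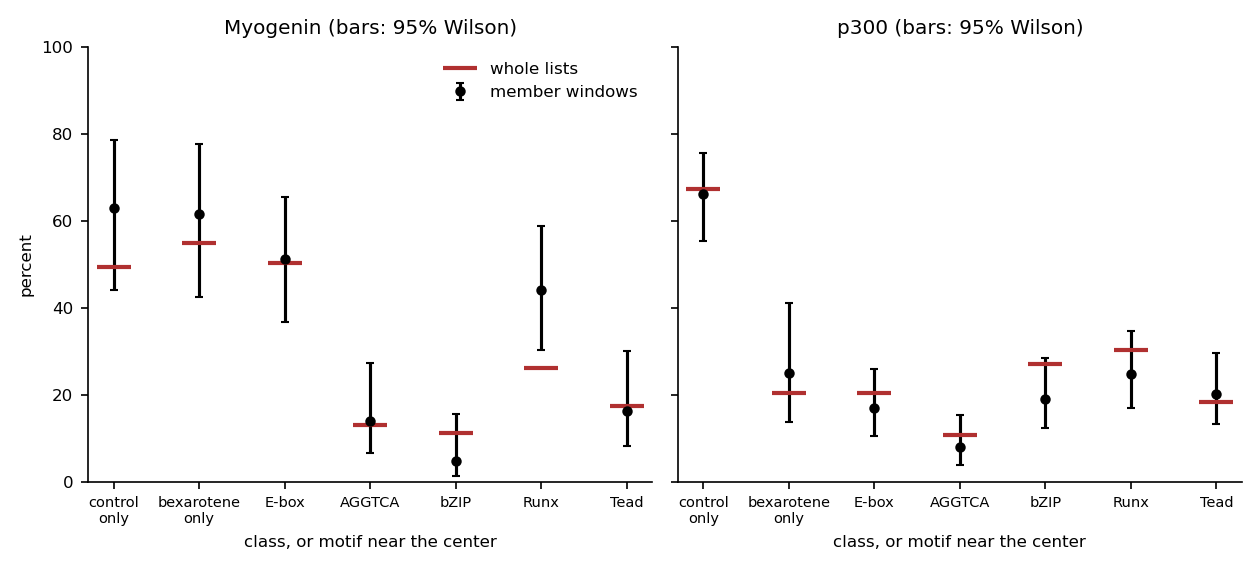
Share of regions unique to a condition, and share of regions with a motif near the center, for myogenin (left) and p300 (right). Points with 95% Wilson intervals give the regions around the receptor genes and red bars the whole lists; the Runx share of myogenin regions is the only one shown whose interval does not reach the whole-list value.

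Short fixed motifs were counted on both strands, the E-box as CAGCTG or in the form CACCTG within 50 bp of the center and the others within 100 bp. An E-box was present in 51.2% of the members' 43 myogenin regions (interval 36.8 to 65.4%) and in 50.4% of all myogenin regions. By class the share was 41.2% in regions unique to control (interval 21.6 to 64%), 60% in shared regions (31.3 to 83.2%) and 56.2% in regions unique to bexarotene (33.2 to 76.9%), where the whole lists had 27.8, 70.3 and 52%. Of the members' p300 regions, 16.9% held an E-box (interval 10.5 to 26%), against 20.4% of all p300 regions. By class, in the same order, the p300 shares were 9.43, 33.3 and 11.1%, against 17.4, 25.5 and 24.2% of the whole lists. The hexamer AGGTCA was present in 14% of the members' myogenin regions (interval 6.56 to 27.3%, against 13.1% of all) and in 7.87% of their p300 regions (3.86 to 15.4%, against 10.8% of all). It was found in 0 of the 17 myogenin regions unique to control (interval up to 18.4%), 3 of the 10 shared (10.8 to 60.3%) and 3 of the 16 unique to bexarotene (6.59 to 43%). The whole lists had 12.2, 12.9 and 14%, each inside the members' interval. Within 50 bp of the center the share of the members' myogenin regions fell to 2.33% (1 of 43, unique to bexarotene; interval 0.412 to 12.1%), and that of the whole list was 6.36%.

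TGTGGT, the core bound by Runx factors, was present in 44.2% of the members' myogenin regions (interval 30.4 to 58.9%) against 26.2% of all myogenin regions, and in 24.7% of their p300 regions (interval 16.9 to 34.6%) against 30.3%. By class, it was present in 29.4% of the myogenin regions unique to control (interval 13.3 to 53.1%) and 60% of the shared ones (31.3 to 83.2%). In those unique to bexarotene the share was 50% (8 of 16, interval 28 to 72%). The whole lists had 18.4, 32.6 and 27.2%. Within 50 bp the shares over all classes were 34.9% of the myogenin regions (interval 22.4 to 49.8%) against 16%, and 15.7% of the p300 regions against 18.2%. At that width the whole-list Runx share was also outside the interval for shared myogenin regions (23.7 to 76.3%, against 20.2%). The same held for those unique to bexarotene (18.5 to 61.4%, against 17%). TGACTCA or TGAGTCA, bound by AP-1, a dimer of Fos and Jun proteins, was present in 4.65% of the members' myogenin regions (interval 1.28 to 15.5%, against 11.1% of all) and 19.1% of their p300 regions (12.3 to 28.5%, against 27% of all). In the p300 regions unique to control the share was 13.2% (interval 6.55 to 24.8%), below the 26.9% of all such regions, and in the shared p300 regions it was 33.3% (18.6 to 52.2%) against 30.7%. Within 50 bp the share of the p300 regions unique to control was 11.3% (interval 5.29 to 22.6%), and the 17.8% of all such regions lay inside the interval. GGAATG, bound by Tead factors, was present in 16.3% of the myogenin (interval 8.12 to 30%) and 20.2% of the p300 regions (13.2 to 29.7%), against 17.3% and 18.4% of all. Within 50 bp it was present in 2.33% of the myogenin regions (1 of 43; 9.67% of all) and 12.4% of the p300 regions (10.4% of all). At the main settings, 56 shares of the members' classes, overlaps in matching conditions, promoters, peak lengths and motifs were set beside the whole lists. The whole-list value was outside the interval for 4 of them. Shares of genes and motif shares within 50 bp were not among the 56, and some of those given above were also outside. Beside peaks or regions within 50 kb of any protein-coding gene, a base chosen after seeing the data, 3 remained outside. These were the Runx share over all myogenin regions (25.1% near any gene) and over those unique to bexarotene (26.4%), and the AP-1 share of the p300 regions unique to control (26.5%).

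Peak length, the only other property in the lists, was at its minimum for many of the members' peaks, at 55.6% of the myogenin peaks in control and 65.4% after bexarotene, and at 38.8 and 61.1% of the p300 peaks. The whole lists had 54.8, 50, 34.3 and 48.9%, each within the members' interval.

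Other genes of the pathway were counted with the same windows. All 6 RXR and RAR genes had a p300 peak and 5 had a myogenin peak, against 56.8% and 41.4% of all protein-coding genes. They held 10 myogenin regions unique to control, 3 shared and 3 unique to bexarotene, and 76.9% of their control regions were unique to control (interval 49.7 to 91.8%, against 49.4% of the whole list). Of the control myogenin regions within 50 kb of any protein-coding gene, 51.7% were unique to control, a value inside that interval. Of the 8 co-activator genes 5 had a peak of either factor (62.5%, against 63.9% of all genes). All 5 co-repressor genes had a p300 peak (100%) and 2 a myogenin peak (40%). Of the 16 target genes of nuclear receptors 13 had a p300 peak (81.2%) and 11 a myogenin peak (68.8%). For both lists the values of all genes were again 56.8% for p300 and 41.4% for myogenin. Per Mb of window, with control first, the target genes held 6.16 and 6.6 myogenin and 12.8 and 5.72 p300 peaks, the co-activator genes 2.92 and 5.26 and 6.42 and 4.09, and the co-repressor genes 4.76 and 5.72 and 26.7 and 6.67. The RXR and RAR genes held 10.9 and 5.03 myogenin and 21 and 10.1 p300 peaks per Mb, and the 7 AP-1 genes 28.1 and 32.1 and 45.4 and 25.4. These lists were not compared with the receptor genes by a test.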

How the data were processed

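The authors aligned the ChIP-seq reads to the mouse genome (mm9) with BWA-MEM (myogenin) or Bowtie (p300), dropped duplicate reads with Picard, and ran HOMER findPeaks (factor style, region option) on every library by itself. Each deposited list gives only the chromosome, start and end of every peak, so positions are the only values used here, with no tag count, score or coverage. Starts are counted from 0 in the lists and from 1 in the text.

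Genes, exons and 45974 protein-coding transcript starts were taken from GENCODE vM1, and sequences from the NCBIM37 genome, whose chromosome lengths matched mm9. Every one of the 39 symbols matched 1 gene. Regions, distances and motif matches were computed with Python 3.11.15, numpy 2.4.6 and scipy 1.17.1, and figures drawn with matplotlib 3.10.9. The functions were tested on simulated data. Shares carry 95% Wilson intervals and densities exact Poisson intervals. Conditions were not tested against each other, as each had 1 library. Distances are from the center of the longest bexarotene peak of a region, or of the control peak, to the gene's nearest protein-coding start.

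The receptor genes, the other gene lists and the comparisons were chosen with earlier results of these data known. Alternatives changed the window, the assignment, the overlap rule, the peaks kept, the promoter distance and catalog, the motif windows and the member with most peaks. Named loci were the myogenin regions that overlapped p300, the regions within 1 kb of a member's own TSS, the longest peaks and, picked after their positions were seen, those that differed between conditions or lay close together. Sequences were printed for peaks with an E-box that overlapped p300 of either condition, 1 per gene, and for 4 more picked later. Input, H3K27me3, tag densities and expression were not analysed here.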

Additional observations from a re-analysis of the deposited data

How the results depend on the processing

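Of 114 values recomputed under other settings, 79 stayed within 1.5 times (counts) or within the interval (shares and densities) and 35 did not. Most of the latter follow from fewer or more bases or peaks being counted. With windows of 10 kb, 8 genes had a myogenin peak in control and 9 after bexarotene, and there were 19 myogenin and 49 p300 regions; with 100 kb, 20 genes had a control myogenin peak and there were 85 and 148 regions. In gene bodies alone, 7 and 3 genes had a myogenin peak and 15 and 6 a p300 peak (control first), with 12 and 38 regions, 88.9% of the control myogenin regions unique to control, 2.05 and 0.91 myogenin peaks per Mb and 2.73 p300 peaks per Mb after bexarotene. By nearest TSS, 11 genes had a p300 peak after bexarotene. With 50% reciprocal overlap, 76.2% of the control and 47.2% of the bexarotene p300 regions were unique to their condition. With only peaks longer than the smallest, 6 genes had a myogenin and 11 a p300 peak after bexarotene, there were 16 and 50 regions, 7.14% of the bexarotene p300 regions were unique to it and 50% of the control myogenin peaks overlapped p300. With centers within 100 bp required, 11.1% and 3.85% of the myogenin peaks coincided with p300. Any CANNTG gave E-box shares of 69.8% for myogenin (main setting 51.2%) and 47.2% for p300 (main setting 16.9%). An E-box anywhere in the peak gave 29.2% for p300. Other motifs within 50 bp gave, for myogenin, 2.33% each for AGGTCA and Tead, and for p300, 15.7% for Runx and 12.4% for Tead. Leaving out Vdr, a promoter distance of 2.5 kb and starts of all transcripts moved no value beyond these limits, nor did leaving Vdr out of the RXR partners, a setting added after seeing the data, though their p300 intervals then overlapped those of the other members. No paired analysis was possible because each factor had 1 library per condition. Peak lists without tag counts limit every comparison to calls, and the depth of the libraries is not known from them.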

Other observations

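Some regions of different classes were close neighbors. Within 500 bp of a peak of the other condition stood 2 of the 17 myogenin regions unique to control and 2 of the 16 unique to bexarotene, at Hnf4a and Nr6a1, and 1 of the 53 and 1 of the 9 such p300 regions, at Nr2f2. Over the whole lists the shares were 8.6 and 6.47% for myogenin and 3.99 and 14.7% for p300, and each lay within the interval of the members' share. Within 5 kb, 29.4% of the members' control-only and 12.5% of their bexarotene-only myogenin regions had a peak of the other condition, against 29.2 and 24.2% of the whole lists.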
